A study of Oryzias latipes with 60 samples.

Results

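Wild-type medaka (Oryzias latipes, a small freshwater fish kept as a vertebrate model) given trametinib were compared with wild-type medaka kept in its solvent, DMSO. The comparison used 10 of the 60 libraries of the series, taken by their titles: 5 DMSO fish, numbered 43 to 47, and 5 fish under trametinib at 20 nM, numbered 48 to 52. In the titles of the wild-type vehicle fish the solvent is spelled with a zero, and it was read as DMSO. Both groups were labelled wild type, were 3 to 4 weeks old and about 10 mm long, and spent 5 days in petri dishes before RNA was taken from the whole body and its poly-A fraction was sequenced. Levels were also read in wild-type fish in saline, under cisplatin at 70 µM (both 5 days in dishes) and untreated in ordinary housing, 5 fish each. Fish carrying the xmrk transgene, which encodes an activated relative of the epidermal growth factor receptor from Xiphophorus, were 5 in DMSO and 10 under trametinib. Their trametinib dose was also 20 nM, and both of these transgenic groups were treated for 5 days. They entered the same statistical fit and served to compare the response between genotypes. Untreated transgenic fish, 5 in number, served as a reference level for their genotype. Transgenic fish in saline (5 fish) and under cisplatin at 70 µM (10 fish) were treated for 5 days. These 2 groups entered only the scaling of levels over all 60 libraries and 1 alternative fit of all 10 groups. The fish of all these groups were 3 to 4 weeks old and about 10 mm long. Each library was taken as 1 fish.

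Trametinib blocks the kinases MEK1 and MEK2, which pass signals from RAS and RAF on to ERK. Growth factor receptors use this cascade to drive proliferation and differentiation, and active ERK induces inhibitors of its own pathway, such as the DUSP phosphatases and the Sprouty proteins. Growing juvenile fish signal through ERK in many tissues at once, and in RNA from a whole body fewer cells of a type and less RNA per cell cannot be told apart. The deposited table names genes by Ensembl identifier alone, and 0 of its 20459 identifiers matched the reference table at hand. What the genes encode is therefore not given, and 19 lists of pathway and tissue genes written by symbol could not be looked up.

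The 10 libraries held between 40414484 and 66545166 counts, and each detected between 19075 and 19424 genes. The TMM factor, which scales a library for its composition and falls when a few genes take much of it, was 1.00, 1.10, 1.16, 0.912 and 0.778 in DMSO fish 43, 44, 45, 46 and 47. In trametinib fish 48 to 52 it was 1.28, 1.15, 1.15, 1.11 and 1.11. The groups overlapped, and the difference of 0.17 between the means did not pass a two-sided exact permutation test (p = 0.0714, adjusted p = 0.107 over 3 library measures, n = 5 each). The 10 most abundant genes of a library took 12.9% ± 1.68 (SD) of its counts in DMSO and 10.5% ± 1.44 under trametinib (exact permutation p = 0.0556, adjusted p = 0.107, n = 5 each). Fish 44 departs from its genotype label in a pair of genes known from earlier results to separate the untreated genotypes. ENSORLG00000000443 stood at 4.49 CPM in this fish and at 0 to 0.0657 CPM in the other 9, against 3.38 to 8.34 CPM in transgenic DMSO fish. ENSORLG00000019887 stood at 0.0725 CPM in fish 44 and 0.0358 CPM in fish 43, where the other 8 fish had 7.60 to 49.2 CPM and transgenic DMSO fish at most 0.0936. The number of genes called below was 1298 without fish 44 and 1223 without fish 43.

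With all fish in the fit, fewer genes passed as higher than as lower under trametinib, and the largest changes were rises. A gene is called when its Benjamini-Hochberg adjusted p in edgeR's quasi-likelihood test is under 0.05. Of 18706 genes tested 979 (5.23%) were called, 301 higher (1.61%) and 678 lower (3.62%). The genes called higher had a median log2 fold change of 1.18 and reached 8.19, and 72 of them rose 4-fold or more. The genes called lower had a median of -0.94 and reached -5.03, and 37 of them changed 4-fold or more. Over all genes tested the median log2 fold change was 0.01. The groups of 5 did not overlap for 157 of the 301 genes called higher and 338 of the 678 called lower. Over all 18706 genes the groups were apart in these directions for 438 and 491, which is 929 in either direction (4.97%). The same fish made the calls, so the larger shares among called genes are a description.

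**Figure D1:**
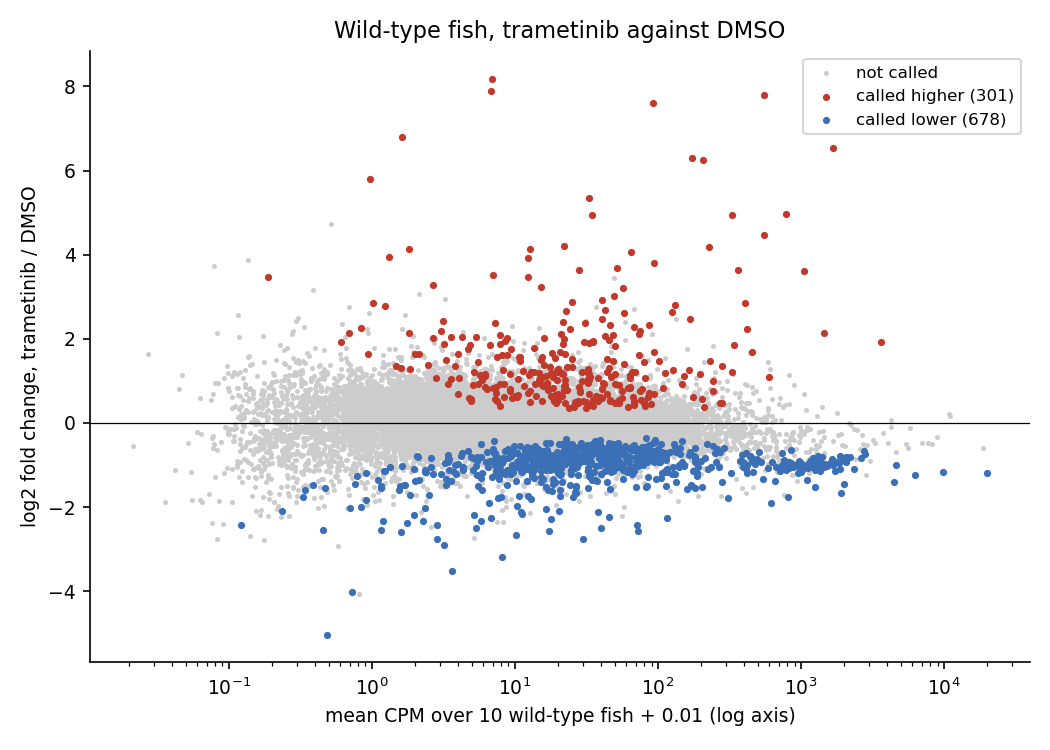
Log2 fold change of trametinib over DMSO in wild-type fish (vertical) against the mean level over the 10 fish in CPM on a log axis (horizontal), 1 point per gene, with 301 genes called higher in red and 678 called lower in blue. The red points reach a log2 fold change of 8.19, while the blue points lie mostly between 0 and -2 and include a run of abundant genes near -1.

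The count and its direction depended on a few fish and on the fit. Without DMSO fish 47 the test called 192 genes, 109 higher and 83 lower, and without DMSO fish 46 it called 211, 106 higher and 105 lower. When fish 47 and transgenic trametinib fish 63 (TMM factors 0.778 and 0.774) were both left out, the test called 651 genes. Of these 227 were higher and 424 lower, so the excess of lower calls was present without fish 47 in that fit. Without trametinib fish 48 it called 339 genes (185 higher and 154 lower), without fish 49 it called 212 (96 and 116), without fish 50 it called 510 (198 and 312) and without fish 51 it called 377 (157 and 220). With fish 52 left out the number rose to 1404 (511 and 893). In a fit of the 10 wild-type fish alone 47 genes were called, 32 higher and 15 lower, and 46 of them belonged to the 979 with the same direction. The same fit without fish 47 called 9 genes, 7 higher and 2 lower. With libraries scaled by their totals alone, where the median of all genes moved up by 0.25 on the log2 scale, the split turned to 602 higher and 304 lower. The excess of lower calls also turned with 2 surrogate variables as covariates (89 higher and 56 lower), and with all 10 groups of the series in 1 fit the calls were balanced (233 and 229). It remained with DESeq2 (613 and 1218) and limma-voom (193 and 515).

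**Figure D2:**
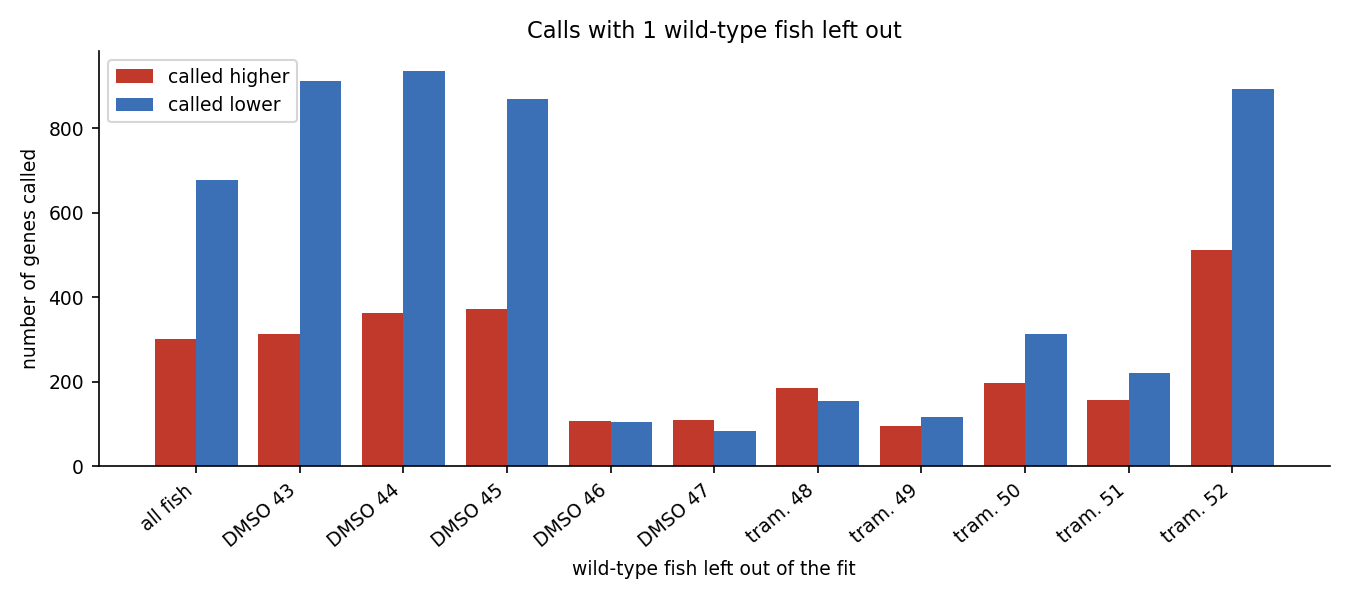
Calls in wild-type fish, as gene numbers for higher (red) and lower (blue), with all fish in the fit and with each of the 10 wild-type fish left out in turn. The lower calls drop from 678 to 83 without DMSO fish 47 and to 105 without DMSO fish 46, and rise to 893 without trametinib fish 52.

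A core of 141 genes was called with any 1 of the 10 wild-type fish left out, 81 higher and 60 lower. Each of these fits kept DMSO fish 46 or 47 and the transgenic fish. Without both fish 46 and 47 the calls were 36 higher and 20 lower, so at most 20 of the 60 lower core genes could be called there. The core genes among those calls were not counted. Of the genes that rose 4-fold or more 51 of 72 belonged to this core, and of those 4-fold or more lower 9 of 37 did. Genes were named from the 103 members of the core whose groups did not overlap and whose mean over the 10 fish was at least 2 CPM, taking the largest fold changes in each direction.

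ENSORLG00000020251 went from almost no reads to a clear level. It stood at 0.0895, 0.0544, 0.0388, 0 and 0.0309 CPM in DMSO fish 43 to 47, which is 12 reads in all, and at 9.93, 23.9, 13.3, 19.4 and 2.33 CPM in trametinib fish 48 to 52. Every trametinib fish lay far above every DMSO fish, with fish 52 the lowest. The means were 0.0427 ± 0.0328 and 13.8 ± 8.37 CPM (SD, n = 5 each), a 322-fold difference (log2 fold change 8.19, SE 1.01, edgeR adjusted p = 6.68e-05). The gene was also near 0 in the wild-type groups that took no part in the call, with at most 0.102 CPM in untreated, 0.608 in saline and 0.136 in cisplatin fish. It kept its call under all 23 alternatives run for the wild-type response, with log2 fold changes of 7.79 to 8.61. The 10 alternatives with a single wild-type fish left out could not lose the call, because the naming rule required it there.

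ENSORLG00000020709 behaved alike but varied more. Its DMSO values were 0.0358 CPM in fish 43, 0 in fish 44, 45 and 46, and 0.340 in fish 47, which held 11 of the 13 reads of the group. Under trametinib it stood at 1.16, 15.7, 12.3, 36.5 and 1.97 CPM in fish 48 to 52. The groups did not overlap, although fish 48 and 52 stayed far below the other trametinib fish. The log2 fold change was 7.88 (SE 1.53, edgeR adjusted p = 0.00738). It rested on few DMSO reads and ran from 7.11, without trametinib fish 51, to 10.28 over the alternatives, with 10.27 without DMSO fish 47 alone. The call was lost with the wild-type groups alone (adjusted p = 0.0741), in that fit without fish 47 (0.0834) and without fish 46 and 47 (0.0558). Over the other wild-type groups its highest value was 0.312 CPM, in saline.

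ENSORLG00000000766 fell. It stood at 13.9, 14.0, 8.31, 10.0 and 26.6 CPM in DMSO fish 43 to 47 and at 5.03, 0.774, 0.762, 1.00 and 0.363 CPM in trametinib fish 48 to 52. The groups did not overlap, and fish 48 kept a level well above the other 4 trametinib fish. The DMSO mean was 9.19 times the trametinib mean (log2 fold change -3.20, SE 0.54, edgeR adjusted p = 0.00232). Without trametinib fish 48 the log2 fold change was -4.33 (edgeR adjusted p = 1.43e-05). Untreated, saline and cisplatin wild-type fish ranged from 6.92 to 16.3 CPM, so the DMSO level was close to theirs and the trametinib level below it. The call was lost in the fit of the wild-type groups alone with fish 47 (adjusted p = 0.101) and without it (0.196).

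ENSORLG00000017707 also fell, from 3.60, 3.01, 3.51, 6.27 and 8.27 CPM in DMSO fish 43 to 47 to 0.636, 0.704, 0.537, 0.335 and 1.37 CPM in trametinib fish 48 to 52. DMSO fish 46 and 47 were highest, trametinib fish 52 was the highest of its group, and the groups did not overlap. The log2 fold change was -2.77 (SE 0.39, edgeR adjusted p = 0.000275), and -2.14 with 2 surrogate variables. The lowest value among untreated, saline and cisplatin wild-type fish was 1.74 CPM, above all trametinib fish. The call was lost only in the fit of the wild-type groups alone without fish 47 (edgeR adjusted p = 0.0659), out of 23 alternatives. The naming rule had required it in the 10 of these with a single wild-type fish left out.

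**Figure D3:**
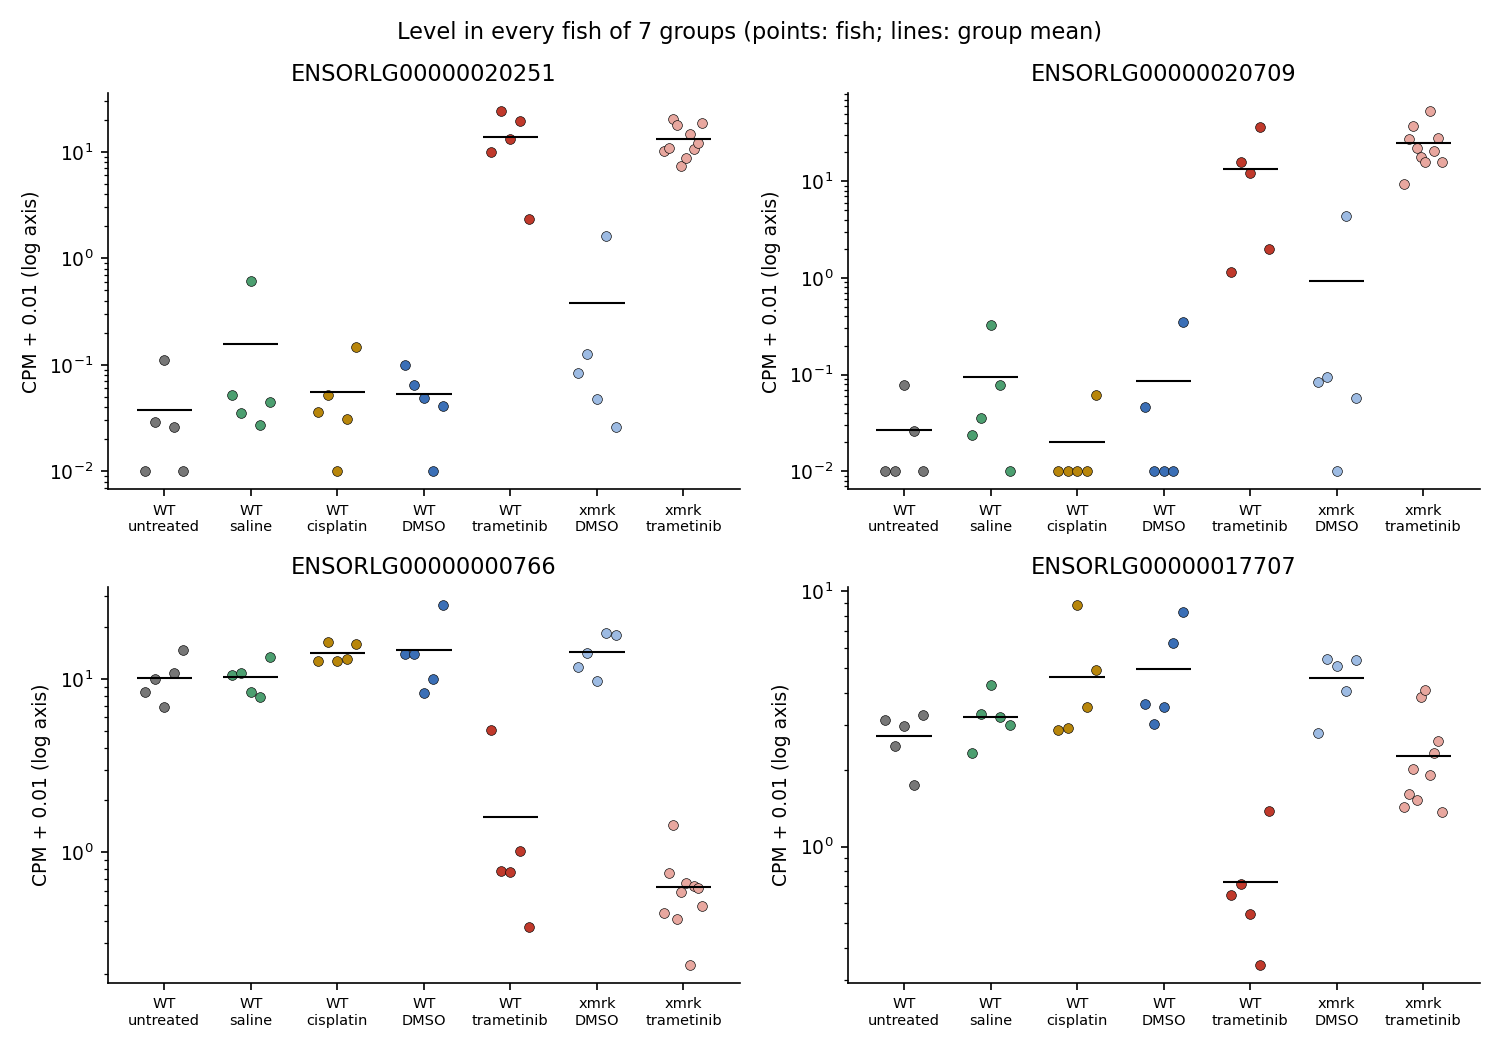
Level of the 4 genes named for the wild-type response, as CPM plus 0.01 on a log axis, in every fish of the 5 wild-type groups and of the transgenic (xmrk) DMSO and trametinib groups, with points for fish and lines for group means. In the upper panels the trametinib fish of both genotypes lie above all other wild-type fish, and in the lower panels the wild-type trametinib fish lie below all other wild-type fish.

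The 72 genes that rose 4-fold or more included 19 that rose 16-fold or more. In DMSO 15 of the 72 had a mean under 1 CPM, and under trametinib 24 reached a mean of 100 CPM or more. Together they took 0.197%, 0.195%, 0.177%, 0.155% and 0.101% of the counts in DMSO fish 43 to 47. In trametinib fish 48 to 52 they took 1.68%, 4.18%, 2.27%, 2.03% and 0.530%. These 10 fish chose the 72 genes, so the gap between the groups is a description; among the trametinib fish, number 49 held the largest share and number 52 the smallest. In untreated, saline and cisplatin wild-type fish, which took no part in the calls, the share was 0.0843% to 0.230%. Transgenic DMSO fish had 0.150% to 0.558%, and the highest of them, fish 56, lay above wild-type trametinib fish 52. Transgenic trametinib fish had 0.608% to 2.55%. For 42 of the 72 genes all 5 trametinib fish lay above all 15 untreated, saline and cisplatin wild-type fish, against 113 of all 18706 genes, though the trametinib values had entered the choice of the 72. Without fish 47 in the fit 55 of the 72 were called, and 28 with the wild-type groups alone.

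The rise was unequal among the treated fish. Over the 72 genes the median log2 difference from untreated wild-type fish was 2.80, 4.14, 3.31, 3.24 and 1.31 in trametinib fish 48 to 52. Fish 52 had the lowest trametinib value for 47 of the 72 genes and fish 49 the highest for 47, while over all genes tested these fish held 4249 of the lowest and 2960 of the highest values among 18706. The ratio of the highest to the lowest trametinib fish had a median of 9.31 over the 72 genes.

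Each fish was also set against calls made without it. For genes called from the other 24 fish, the fish left out was placed relative to the midpoint between the remaining group means of log2 CPM. Trametinib fish 49 lay on the trametinib side for 96 of 96 genes called higher, fish 50 for 168 of 198, fish 51 for 128 of 157 and fish 48 for 140 of 185. Fish 52 did so for 155 of 511, and its median position was 32.9% of the way from the DMSO to the trametinib mean. For genes called lower the 5 trametinib fish lay on their own side for 52.9% (fish 52) to 87.9% (fish 49) of genes. The DMSO fish differed among themselves. For genes called lower without them, fish 46 lay on the DMSO side for 102 of 105 and fish 47 for 72 of 83. Fish 43 did so for 395 of 911 genes, fish 44 for 394 of 936 and fish 45 for 398 of 869, so most genes called lower from the remaining fish stood nearer to the trametinib mean in these 3 DMSO fish. For genes called higher fish 43, 44 and 45 lay on the DMSO side for 217 of 312, 239 of 362 and 242 of 371.

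The genes called lower were set against the wild-type groups that took no part in the call. Their median log2 difference from untreated wild-type fish was 0.36, 0.39, 0.41, 1.03 and 1.40 in DMSO fish 43 to 47, and -0.35, -0.22, -0.06, -0.30 and 0.10 in trametinib fish 48 to 52. The DMSO and trametinib values chose these genes, so the gap between those 2 groups is a description. Saline fish, which did not, stood at 0.15 to 0.52, and cisplatin fish at 0.60 to 1.37. The saline mean exceeded the highest untreated fish for 427 of the 678 genes and the cisplatin mean for 600, against 6603 and 6941 of all 18706 genes. The trametinib mean lay within the range of the 5 untreated fish for 265 genes, below it for 279 and above it for 134. Over all 18706 genes these numbers were 6876, 5205 and 6625, so the share within the range was near that of all genes. All 5 trametinib fish lay below all 15 untreated, saline and cisplatin fish for 42 of the 678 genes (67 of all 18706). The trametinib values had entered the choice of the 678, so this count is a description too. With library totals in place of TMM the mean of these medians moved from 0.83 to 0.40 in cisplatin fish and kept its sign in every group. The DMSO fish with the lowest TMM factors, 47 and 46, and cisplatin fish 40, with a factor of 0.685, had the highest medians of their groups. Trametinib fish 52, with the lowest factor of its group (1.11), also had the highest median. Fish 48, with the highest factor (1.28), had the lowest. In untreated fish, fish 68 had the lowest factor (1.15) but not the highest median. The saline group, with factors of 0.992 to 1.13, held no library under 0.8. Its highest median, 0.52, was in fish 37 with a factor of 1.10. Saline fish 36, with the lowest factor of that group (0.992), had a median of 0.39. The part of library composition in the lower calls was not tested. In the core of 60 genes called lower with any fish left out, the trametinib fish that helped to choose them stood at -0.72 to -0.33, and untreated fish at -0.08 to 0.10. The DMSO fish, which also helped to choose these 60 genes, stood at 0.39 to 1.37. Saline fish stood at 0.31 to 0.67 and cisplatin fish at 0.70 to 1.31.

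**Figure D4:**
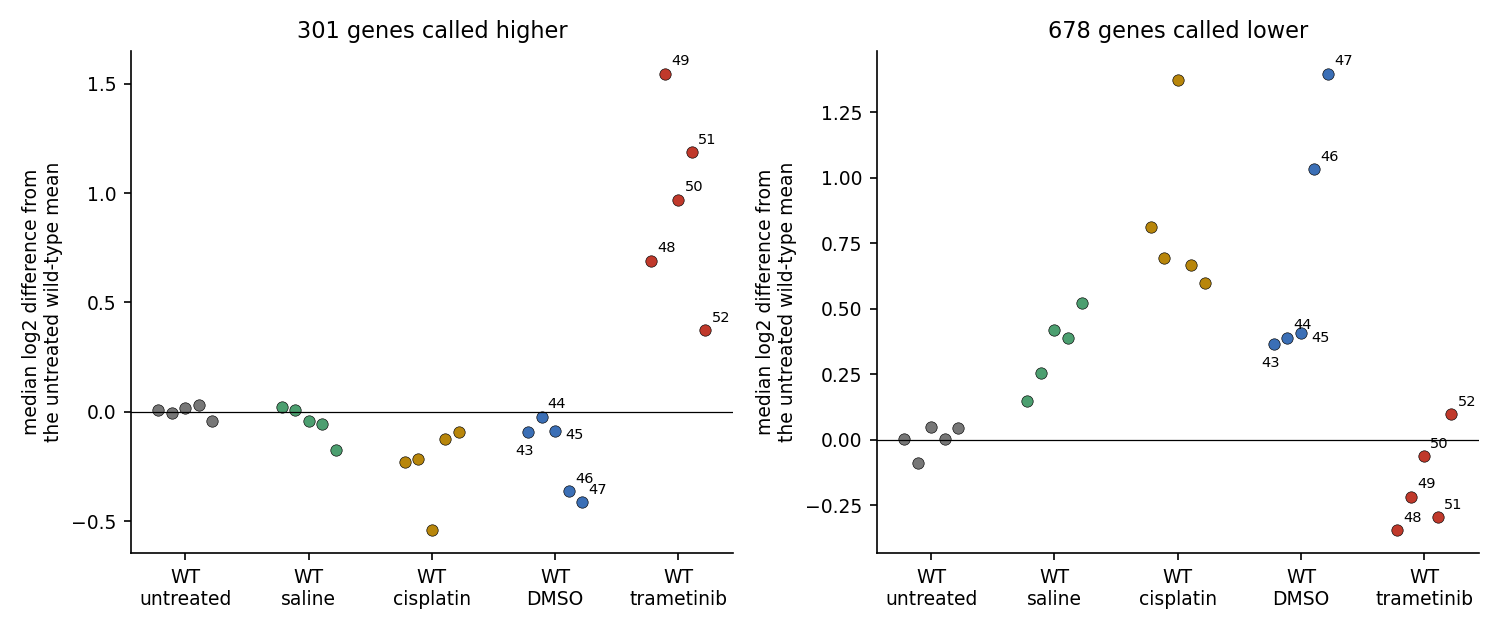
Median log2 difference from the mean of untreated wild-type fish over the 301 genes called higher (left) and the 678 called lower (right), 1 point per wild-type fish, with fish numbers for DMSO and trametinib. On the left the trametinib fish, at 0.37 to 1.55, lie above all others; on the right saline, cisplatin and DMSO fish lie above untreated fish, with DMSO fish 46 and 47 at 1.03 and 1.40, and trametinib fish lie between -0.35 and 0.10.

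Calls were more frequent among abundant genes. Among 1268 genes with a mean of 100 CPM or more, 38 passed as higher and 172 as lower, 16.6% in all, against 2.96% at 1 to 10 CPM and 1.36% under 1 CPM. Among the 124 genes with a mean of 1000 CPM or more, a limit chosen after the values were seen, 4 were called higher and 56 lower. The log2 fold change was below 0 for 112 of the 124, with a median of -0.76 against 0.01 over all genes tested. The 56 had a median log2 fold change of -1.001. Their groups did not overlap in 46 cases, against 491 of all 18706 genes in that direction. The same fish picked the 56 as lower, so both values are a description. They took 11.5%, 12.1%, 14.7%, 18.1% and 22.6% of the counts in DMSO fish 43 to 47, and 7.77%, 9.16%, 10.4%, 8.36% and 10.8% in trametinib fish 48 to 52. The share was 9.17% to 11.7% in untreated, 11.2% to 16.5% in saline and 16.1% to 22.6% in cisplatin fish. Of the 56 genes 1 was called without fish 47 and 0 in the fit of the wild-type groups alone, where 3422 of all genes had an unadjusted p under 0.05.

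The genes called in wild-type fish were then read in transgenic fish, which share no library with the wild-type comparison but share the estimate of the spread. In transgenic fish 263 of 18706 genes (1.41%) were called, 180 higher (0.962%) and 83 lower (0.444%). Of the 301 genes called higher in wild-type fish 69 were also called higher there and 0 lower. Of the 72 that rose 4-fold or more 42 were called higher there, and 70 had a positive log2 fold change, against 46.96% of all genes tested. The medians over the 72 were 2.86 in wild-type and 2.13 in transgenic fish. Of the 678 genes called lower 22 were called lower in transgenic fish and 1 higher. A negative log2 fold change there was found for 285 of the 678 (42.04%), a smaller share than the 53.04% of all genes tested, and the median was 0.06. The 60 core genes, called lower with any 1 wild-type fish left out, read otherwise. Of these 43 (71.67%) had a negative log2 fold change in transgenic fish, with a median of -0.27. There 10 of the 60 were called lower and 0 higher. As the wild-type values chose the genes, a smaller median in transgenic fish is no comparison between genotypes. ENSORLG00000020251 stood at 7.27 to 20.4 CPM in the 10 transgenic trametinib fish and at 0.0160 to 1.62 in the 5 DMSO fish (log2 fold change 5.17, edgeR adjusted p = 0.000829). ENSORLG00000020709 ran from 9.34 to 52.7 CPM against 0 to 4.37 (log2 fold change 4.77, edgeR adjusted p = 0.0416). ENSORLG00000000766 fell to 0.215 to 1.43 CPM from 9.72 to 18.3 (log2 fold change -4.54, edgeR adjusted p = 2.32e-06). ENSORLG00000017707 stood at 1.36 to 4.10 against 2.77 to 5.41 CPM and was not called (log2 fold change -1.02, edgeR adjusted p = 0.0948).

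**Figure D5:**
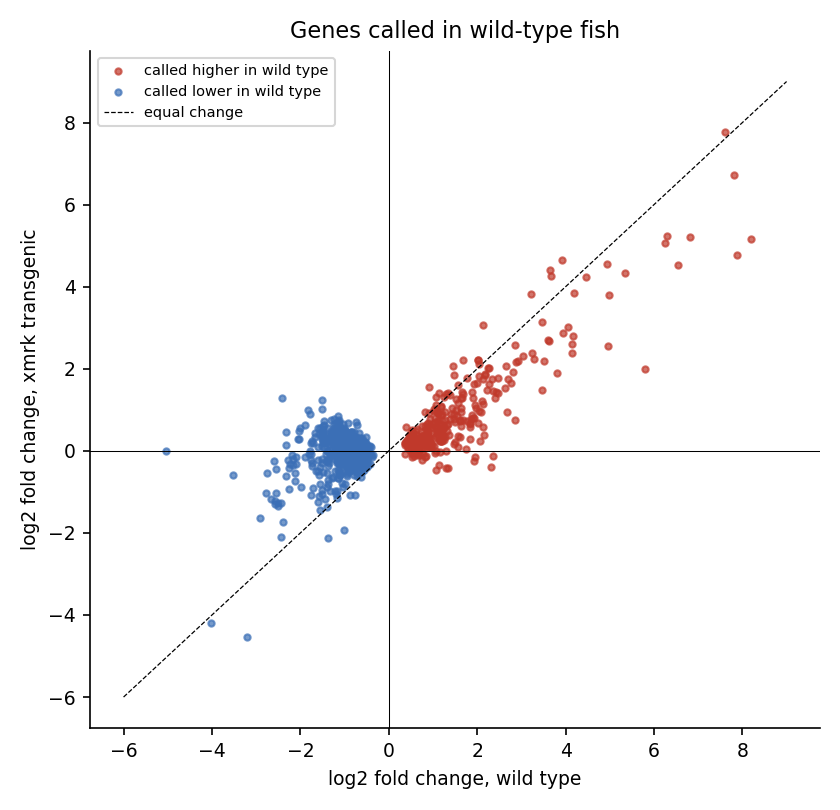
Log2 fold change of trametinib over DMSO in transgenic fish (vertical) against wild-type fish (horizontal) for the 301 genes called higher (red) and the 678 called lower (blue) in wild-type fish, with a dashed line of equal change. Red points lie mostly above 0 on the vertical axis, among them 70 of the 72 that rose 4-fold or more. The red point furthest right, at 8.19 in wild-type fish, lies below the line at 5.17 in transgenic fish. Blue points spread around 0 on the vertical axis, with a median of 0.06.

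The difference between the responses was tested directly. It passed in 14 of 18706 genes (0.0748%), all with a lower wild-type response, while 3727 had an unadjusted p under 0.05. None of the 301 genes called higher was among them, and 12 of the 678 called lower were. The 14 genes had log2 fold changes of -1.67 to -0.30 in wild-type and 0.30 to 1.05 in transgenic fish. ENSORLG00000004106 stood at 14.0, 25.7, 41.6, 75.3 and 45.9 CPM in DMSO fish 43 to 47 and at 12.1, 13.4, 13.2, 13.3 and 11.5 CPM in trametinib fish 48 to 52. The trametinib fish were nearly level, and the DMSO fish spread over a wide range down to theirs. In transgenic fish its means were 17.3 ± 3.03 (SD, n = 5) in DMSO and 23.8 ± 5.37 CPM (n = 10) under trametinib, and the log2 difference between responses was -2.12 (SE 0.37, edgeR adjusted p = 0.0462). ENSORLG00000007672 stood at 23.3, 57.5, 90.2, 97.5 and 56.5 CPM in DMSO fish and 32.9, 35.2, 20.6, 41.95 and 15.6 CPM in trametinib fish. Its groups overlapped through DMSO fish 43. The transgenic means were 31.7 ± 3.91 and 58.2 ± 10.1 CPM (log2 difference -2.02, SE 0.37, edgeR adjusted p = 0.0462). These calls depended on single fish: with 1 of the 25 fish left out edgeR called 0 genes in 16 of 25 cases, with 2226 to 4541 genes at an unadjusted p under 0.05. The number was 331 without DMSO fish 43, 280 without fish 44, 84 without trametinib fish 51 and 100 without transgenic fish 58. Limma-voom called 0 genes (3990 at an unadjusted p under 0.05) and DESeq2 called 749.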

How the data were processed

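Poly-A RNA of whole fish was sequenced. The authors deposited a table of unnormalized counts with 20459 Ensembl genes in rows and 60 columns, each matched to a sample by its title. The submitters' processing notes name featureCounts and TopHat2 (version 2.2.4). No source used here states the build, annotation, strand setting or handling of multi-mapped reads, so overlapping genes and near-identical copies are uncertain. In R 4.3.3 with edgeR 4.0.16, the 25 DMSO and trametinib fish of both genotypes were fitted together: filterByExpr on the 4 groups, TMM scaling, robust dispersions and the quasi-likelihood F test, with p-values adjusted over all 18706 genes. Standard errors come from the F statistic. Levels are CPM scaled with TMM factors over all 60 libraries, and log2 levels use a prior count of 2. Alternatives used limma 3.58.1 (voom), DESeq2 1.42.0, sva 3.50.0, other scalings and filters, and single fish left out. Within the groups, the smallest chi-square per gene over 20 pairs of libraries was 128.5, far above sampling noise, so all were kept as separate. The edgeR step was tested on simulated data with the same dispersion for every gene and group. Such data cannot show how the step behaves with unequal spreads or with single fish that stand apart. No label pairs fish or names a batch or dish, so dish and treatment cannot be told apart. The p-values of the main edgeR fit rest on the spread between fish, estimated over the 25 fish of both genotypes. They take the spread of a gene to be equal in the 4 groups. The fish medians over the genes called lower had an SD of 0.47 in wild-type DMSO fish. In transgenic DMSO fish that SD was 0.054, so the shared spread may be too small for the wild-type DMSO fish. The members, lists and naming rule were chosen with earlier results of these data known. The rule took, per direction, the 2 genes changed most among those called with a mean of at least 2 CPM, groups that did not overlap and a call kept with any wild-type fish left out; a longer rule by symbol could not be used. For the difference between genotypes it named up to 2 in each direction.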

Additional observations from a re-analysis of the deposited data

Results flagged for a closer look

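Of 90 sets of values within a group that were examined, 14 held a fish far from the others of its group. The rule flags about 1 in 20 sets of independent, normally distributed values. These sets share fish and genes, and some values rest on few reads, so their chance rate is not known. ENSORLG00000020251 was high in untreated fish 70 (0.102 CPM), saline fish 35 (0.608 CPM) and transgenic DMSO fish 56 (1.62 CPM). ENSORLG00000020709 was high in the same 3 fish (0.0677, 0.312 and 4.37 CPM), in cisplatin fish 42 (0.0509 CPM) and in DMSO fish 47 (0.340 CPM). The 4.37 CPM of fish 56 exceeds wild-type trametinib fish 48 and 52 for that gene, and its 1.62 CPM of ENSORLG00000020251 is near the 2.33 CPM of trametinib fish 52; the others lie below every wild-type trametinib fish. ENSORLG00000000766 was high for its group in trametinib fish 48 (5.03 CPM) and in transgenic trametinib fish 60 (1.43 CPM). Fish 48 also had a high TMM factor for its group (1.28). Over the genes called lower, cisplatin fish 40 stood apart with a median log2 difference from untreated wild-type fish of 1.37. It had 31.3% of its counts in these genes. Transgenic trametinib fish 63 stood apart with a median of 0.87, measured from untreated transgenic fish, so the 2 medians have different references. Fish 40 and 63 both have a TMM factor under 0.8 over all 60 libraries.

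The test of the difference between genotypes itself called 14 genes, among them ENSORLG00000004106 (log2 difference -2.12) and ENSORLG00000007672 (log2 difference -2.02). All 14 passed narrowly, with edgeR adjusted p from 0.0462 to 0.0493. With 1 of the 25 fish left out, 16 of 25 fits called 0 genes, with 2226 to 4541 at an unadjusted p under 0.05.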

How the results depend on the processing

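The 979 genes called in wild-type fish became 47 with the compared groups alone, 462 with all 10 groups in a single fit, 651 without libraries of low TMM factor, 1831 with DESeq2, 145 with 2 surrogate variables and 232 when tested against a 1.2-fold change. Settings added after the data were seen gave 9 (the compared groups without fish 47) and 56 (without fish 46 and 47). With 1 wild-type fish left out the number ran from 192 to 1404. RLE scaling (976), no filter (876), a filter of 1 CPM in 5 fish (960), library totals (906) and limma-voom (708) kept it within 1.5 times. The 14 genes called for the difference between genotypes became 24 with all groups in a single fit, 2 without libraries of low TMM factor, 749 with DESeq2, and 0 with library totals, limma-voom, 2 surrogate variables or without fish 46 and 47 (4044, 3990, 1027 and 1106 at an unadjusted p under 0.05); with 1 fish left out it ran from 0 to 331. The call of ENSORLG00000004106 was lost in 23 of 35 alternatives and that of ENSORLG00000007672 in 24, without a change of sign. The number of genes whose groups do not overlap was 929, and 907 to 958 with other scalings and filters. It was 1078 without fish 47, where the smaller DMSO group makes separation easier to reach. The difference in TMM factor ran from 0.116 to 0.212 with 1 fish left out, and that in the share of the 10 most abundant genes from -2.75 to -1.65 percentage points; the first passed an unadjusted 0.05 without fish 44 or 45, the second without fish 44 or 52. The difference in total count, -1114000, ran from -3926000 to 2297000 and turned positive without fish 45 (2297000) or fish 51 (1729000). The causes of these changes were not tested. Genes near 0 CPM in DMSO rest on single reads, so their fold changes are uncertain.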
